A study of Mus musculus with 12 samples.

Results

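The 7 genes described here act where RNA polymerase II moves from a paused start into productive transcription, or, for a pair of cyclins among them, where transcription meets splicing. They are Brd2, Cdk9, Ccnt1, Hexim1, Rn7sk, Ccnl1 and Ccnl2, 7 of 22180 genes measured in whole mouse lung. Each was found through probes that the platform annotation pairs with exactly 1 of these symbols. The 7 have 9 such probes, and where a gene had 2, the probe was chosen by its mean over the 12 arrays, the higher standing for the gene. The set was put together with the ventilation and genotype differences of these data known, so the values describe the genes and are no independent test of the set.

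All 12 mice were female and 10 weeks old, and each gave 1 lung RNA sample and 1 one-colour Affymetrix array. The 4 groups of 3 mice were Zmpste24-/- ventilated, wildtype ventilated, Zmpste24-/- baseline and wildtype baseline. Zmpste24 encodes the metalloprotease that matures prelamin A, and Zmpste24-/- mice are deficient in it. Ventilated mice received 2.5 hours of mechanical ventilation at 15 cmH2O inspiratory pressure with no end-expiratory pressure, 100 breaths per minute, a 1:1 ratio of inspiration to expiration and an oxygen fraction of 0.21, and baseline mice were intact. The sources used here name neither the strain, nor the form of the Zmpste24 allele, nor whether baseline mice were anaesthetised. Where a gene is said to rise with ventilation or to be raised by it, ventilated mice are compared with intact mice. Anything else that differed between them cannot be told apart from ventilation.

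After initiation, RNA polymerase II often halts a short way into a gene. The kinase P-TEFb, made of CDK9 and a cyclin T, phosphorylates the pausing factors and the polymerase tail and so releases it. Much of the cell's P-TEFb is held inactive by the 7SK small nuclear RNA together with HEXIM1, while bromodomain proteins of the BET family, which include BRD2, read acetylated histones and help assemble the transcription machinery. Cyclins L1 and L2 bind CDK11 kinases and reside in nuclear speckles, where pre-mRNA splicing factors gather.

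Array medians lay between 5.35 and 5.42 on the deposited log2 scale. Each Zmpste24-/- ventilated array had a lower median than each wildtype ventilated array. Zmpste24 itself stood at 5.01 to 5.91 in the 6 Zmpste24-/- arrays and at 8.50 to 9.28 in the 6 wildtype arrays. The 8 alveolar type 2 markers averaged 11.46 to 11.78 per array over the 4 groups. Wildtype baseline array 2 stood apart in 4 liver transcripts, with a list mean of 8.92 against 6.20 and 6.72 in the other wildtype baseline arrays, 4.75 to 6.03 in wildtype ventilated arrays and 4.46 to 4.74 in the 6 Zmpste24-/- arrays. Without that array every member kept its calls. Brd2 and Ccnl1 were then at 0.42 and 0.52 for ventilation in wildtype lungs (limma, adjusted p = 0.0242 and 0.0108). For the interaction they were at 1.01 and 0.85 (limma, adjusted p = 0.0144 and 0.048). With all arrays, 4 of 4 liver transcripts were lower in Zmpste24-/- lungs at baseline by limma (4.11 percent of all genes). With ventilation in wildtype lungs 2 of 4 were lower (3.53 percent of all genes). Leaving out array 2 does not remove the higher level in the other wildtype baseline arrays, whose part in the member differences was not tested.

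Brd2, a BET protein that reads acetylated histones, had the largest ventilation increase of the 7 genes in Zmpste24-/- lungs. Its log2 level was 9.73, 9.74 and 9.78 in Zmpste24-/- ventilated lungs and 9.06, 8.77 and 8.94 in wildtype ventilated lungs. At baseline it read 8.30, 8.28 and 8.35 in lungs of Zmpste24-/- mice and 8.53, 8.44 and 8.47 in lungs of wildtype mice. No array of one group overlapped with any other group: the order was Zmpste24-/- ventilated, wildtype ventilated, wildtype baseline and Zmpste24-/- baseline. Ventilation raised Brd2 by 1.44 ± 0.083 on the log2 scale in Zmpste24-/- lungs, a 2.71-fold increase (limma, adjusted p = 4.62e-07), and by 0.45 ± 0.083, or 1.36-fold, in wildtype lungs (adjusted p = 0.00549). Values after ± are standard errors of the difference, and adjusted p-values are by Benjamini-Hochberg over all 22180 genes. The increase in Zmpste24-/- lungs exceeded that in wildtype lungs by 0.99 ± 0.12 (95% interval 0.74 to 1.25, limma interaction, adjusted p = 0.00494), which was rank 4 of all genes by p-value. Between genotypes Brd2 was higher in Zmpste24-/- ventilated lungs than in wildtype ventilated lungs by 0.83 ± 0.083 (adjusted p = 0.0001). At baseline the genotype difference was -0.17 (interval -0.35 to 0.01, adjusted p = 0.269) and did not pass, although the arrays of the 2 groups did not overlap. These comparisons share arrays, since each group enters more than 1 of them. All of them rest on whole lung, in which fewer cells of a type and less RNA per cell cannot be told apart.

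**Figure D1:**
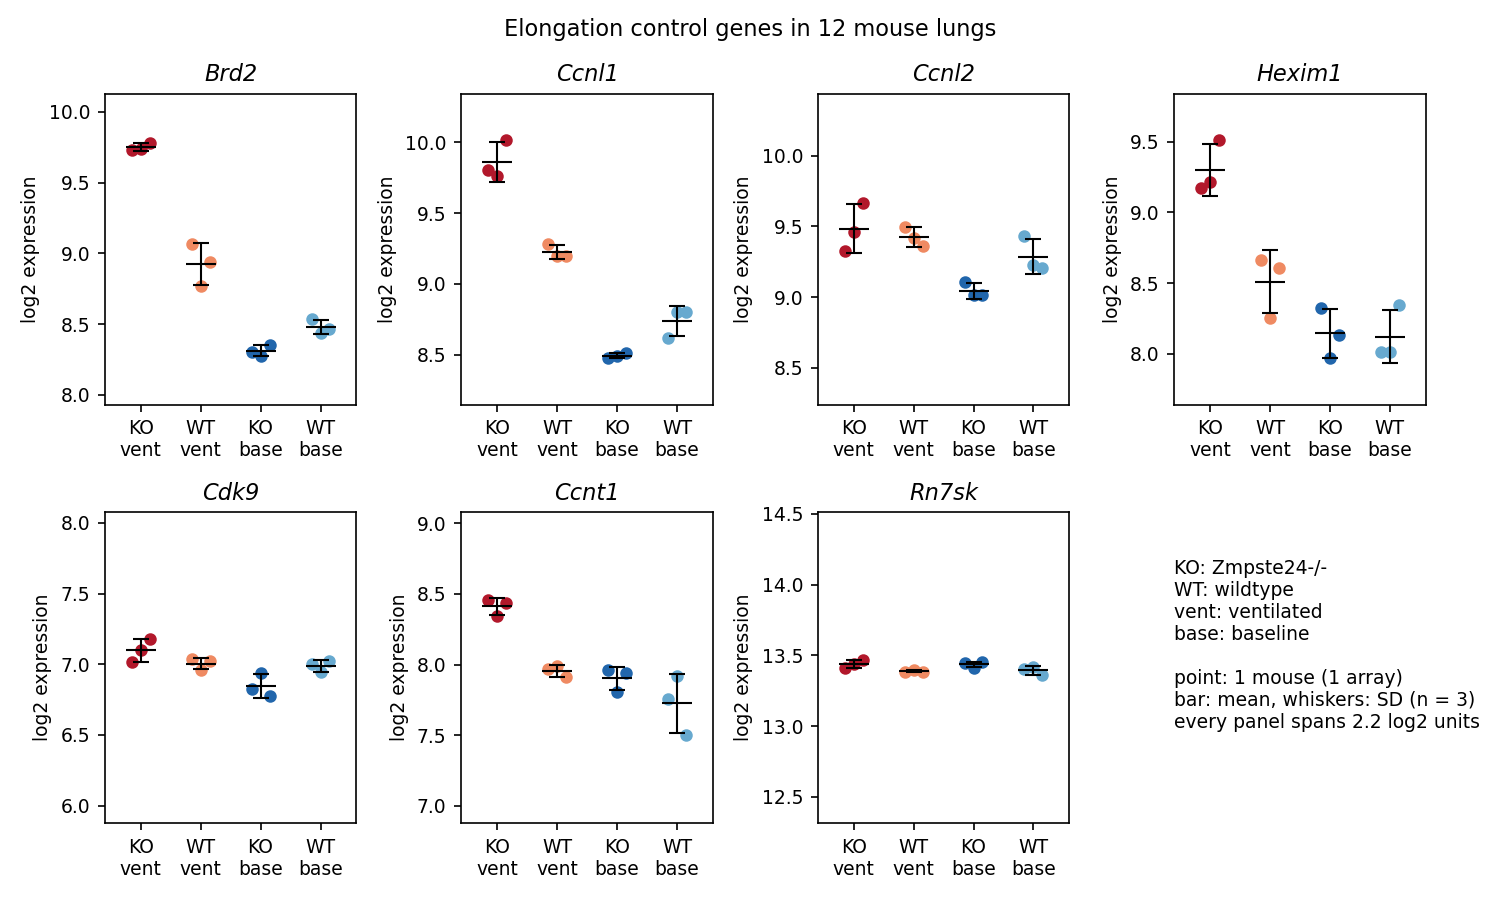
Deposited log2 level (vertical axis) of each of the 7 genes on each of the 12 arrays, by group from Zmpste24-/- ventilated at the left to wildtype baseline at the right; each point is 1 mouse and each bar the group mean. Every panel spans the same number of log2 units, so steps can be compared across genes, and Brd2, Ccnl1 and Hexim1 stand highest in Zmpste24-/- ventilated lungs while Rn7sk stays near 13.4 in all groups.

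Of the 3 BET genes tested here, Brd2 alone passed any of these comparisons. Brd3, a ubiquitous paralogue, had a ventilation difference of -0.04 ± 0.082 in Zmpste24-/- lungs (adjusted p = 0.857) and of -0.0062 ± 0.082 in wildtype lungs (adjusted p = 0.982). For Brdt, a paralogue of the testis, the differences were -0.02 ± 0.081 in Zmpste24-/- lungs and 0.016 ± 0.081 in wildtype lungs (limma, adjusted p = 0.908 and 0.946). Brdt was dim, with group means of 4.18 to 4.22, below the array medians.

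Cdk9, the kinase of P-TEFb, had the smallest increase that passed. Its log2 level was 7.01, 7.10 and 7.18 in Zmpste24-/- ventilated lungs and 7.04, 6.96 and 7.02 in wildtype ventilated lungs, which overlapped. In baseline lungs it was 6.82, 6.94 and 6.77 in Zmpste24-/- mice and 7.0, 6.94 and 7.02 in wildtype mice, where the nearest arrays of the 2 groups read 6.941 and 6.943. Ventilation raised it by 0.25 ± 0.078 (1.19-fold) in Zmpste24-/- lungs (limma, adjusted p = 0.0403). In wildtype lungs the difference was 0.016 ± 0.078 (interval -0.15 to 0.18, adjusted p = 0.944). The interaction, 0.24 ± 0.11, did not pass (adjusted p = 0.428), so a larger ventilation change in Zmpste24-/- lungs was not shown for this gene. Its call in Zmpste24-/- lungs was the weakest of the 7 genes: it was lost in 9 of 21 alternative settings, among them leaving out Zmpste24-/- baseline array 1 or 3, Zmpste24-/- ventilated array 2 or 3 or wildtype ventilated array 3 (adjusted p = 0.103, 0.15, 0.106, 0.16 and 0.0527, range over all settings 0.0247 to 0.16).

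Ccnt1, cyclin T1, is the partner that activates CDK9. Its probe read 8.45, 8.34 and 8.44 in Zmpste24-/- ventilated lungs and 7.97, 7.99 and 7.91 in wildtype ventilated lungs. In baseline lungs it read 7.96, 7.81 and 7.94 in Zmpste24-/- mice and 7.76, 7.92 and 7.50 in wildtype mice. The Zmpste24-/- ventilated arrays lay above all 9 others, which overlapped among themselves. The ventilation increase was 0.51 ± 0.099, or 1.42-fold, in Zmpste24-/- lungs (limma, adjusted p = 0.0031), against 0.23 ± 0.099 in wildtype lungs (adjusted p = 0.202). Zmpste24-/- ventilated lungs exceeded wildtype ventilated lungs by 0.45 ± 0.099 (adjusted p = 0.0102), but the interaction, 0.28 ± 0.14, did not pass (adjusted p = 0.481). Ccnt2, the other cyclin T, did not pass, with a ventilation change of -0.10 ± 0.078 in Zmpste24-/- lungs (adjusted p = 0.491).

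The 250 bases upstream of the annotated Ccnt1 start, from the RefSeq promoter table (GRCm38.p6), are shown because they hold both letter patterns of the heat shock element that were searched for, in capitals, beginning 82 and 64 bases before the start.
Ccnt1 promoter, chr15:98567737-98567986, minus strand: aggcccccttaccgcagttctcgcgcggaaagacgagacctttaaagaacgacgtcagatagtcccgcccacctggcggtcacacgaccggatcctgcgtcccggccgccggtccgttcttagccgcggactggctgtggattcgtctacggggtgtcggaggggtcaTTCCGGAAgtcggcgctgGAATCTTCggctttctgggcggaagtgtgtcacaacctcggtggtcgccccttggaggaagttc
The patterns were TTCNNGAA and GAANNTTC, read on both strands. They occur in 7.17% and 6.69% of 32851 promoter windows of the same length. Ccnl2, with 1 TTCNNGAA at 214 bases before its start, is the only other member with either pattern, and its start as used here lies inside the annotated gene, unlike that of Ccnt1.

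Hexim1, the protein that with 7SK RNA inhibits P-TEFb, was the third member with a large ventilation increase in Zmpste24-/- lungs. Its log2 level was 9.17, 9.21 and 9.51 in Zmpste24-/- ventilated lungs, above all 9 other arrays. Wildtype ventilated lungs gave 8.66, 8.25 and 8.61, Zmpste24-/- baseline lungs 8.32, 7.97 and 8.13, and wildtype baseline lungs 8.01, 8.01 and 8.34, and these 3 groups overlapped. Ventilation raised Hexim1 by 1.16 ± 0.14 in Zmpste24-/- lungs, a 2.23-fold increase (limma, adjusted p = 8.92e-05). In wildtype lungs the difference was 0.39 ± 0.14 (adjusted p = 0.12) and did not pass; without wildtype ventilated array 2, the lowest of the 3, it was 0.51 and passed (adjusted p = 0.049, range over all settings 0.049 to 0.314). The genotype difference under ventilation was 0.79 ± 0.14 (adjusted p = 0.00293), and at baseline it was 0.022 ± 0.14 (adjusted p = 0.956). For the interaction, 0.77 ± 0.20, the adjusted p of 0.118 missed the threshold, with an interval of 0.35 to 1.19.

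The Hexim1 window is printed because it holds a TATATAA run, in capitals, 123 bases before the start, a pattern whose letters were chosen after the windows were read and which 3.04% of windows hold.
Hexim1 promoter, chr11:103116075-103116324, plus strand: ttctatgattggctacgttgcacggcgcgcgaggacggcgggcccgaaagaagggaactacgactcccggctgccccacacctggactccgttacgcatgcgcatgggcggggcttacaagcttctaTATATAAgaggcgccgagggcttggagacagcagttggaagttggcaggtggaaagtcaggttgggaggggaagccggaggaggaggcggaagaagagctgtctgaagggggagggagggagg
None of the other patterns searched (the cAMP response element TGACGTCA, AP-1 TGANTCA, the antioxidant response element core TGACNNNGC, the ATF4 composite TGATGNAA, the E-box CACGTG, 2 forms of the NF-kB site, both heat shock patterns and the TATA box TATAAA) is in this window, which says only that these letters are absent from it.

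Rn7sk, the 7SK small nuclear RNA that holds P-TEFb inactive, passed in no comparison. Its level was 13.41, 13.44 and 13.47 in Zmpste24-/- ventilated lungs, 13.38, 13.40 and 13.38 in wildtype ventilated lungs, 13.44, 13.41 and 13.45 in lungs of Zmpste24-/- baseline mice and 13.40, 13.42 and 13.36 in lungs of wildtype baseline mice. All 12 arrays lay between 13.36 and 13.47, and the ventilated and baseline arrays overlapped in both genotypes. Between ventilated genotypes the arrays did not overlap, as for 30.3 percent of all genes. There Zmpste24-/- lungs were higher by 0.05 ± 0.067, which did not pass (limma, adjusted p = 0.712). The ventilation difference was 0.0029 ± 0.067 in Zmpste24-/- lungs (interval -0.14 to 0.15, limma, adjusted p = 0.987) and -0.0066 ± 0.067 in wildtype lungs (interval -0.15 to 0.14, adjusted p = 0.977). This probe had the highest value of the whole array on 8 of 12 arrays and ranked no lower than 3 on the others. At the top of the array's range a real difference can be compressed, so these intervals apply to the measured values, and compression was not tested. Its other probe, at 13.01 to 13.15, ranked 14 to 22. That probe had ventilation differences of 0.017 ± 0.066 in Zmpste24-/- lungs and -0.010 ± 0.066 in wildtype lungs. RNA polymerase III makes Rn7sk, and of 4 other RNAs of that polymerase, 1 changed with ventilation in Zmpste24-/- lungs: Rpph1, the RNA of ribonuclease P, fell by 0.52 ± 0.17 on the log2 scale (adjusted p = 0.0469).

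**Figure D2:**
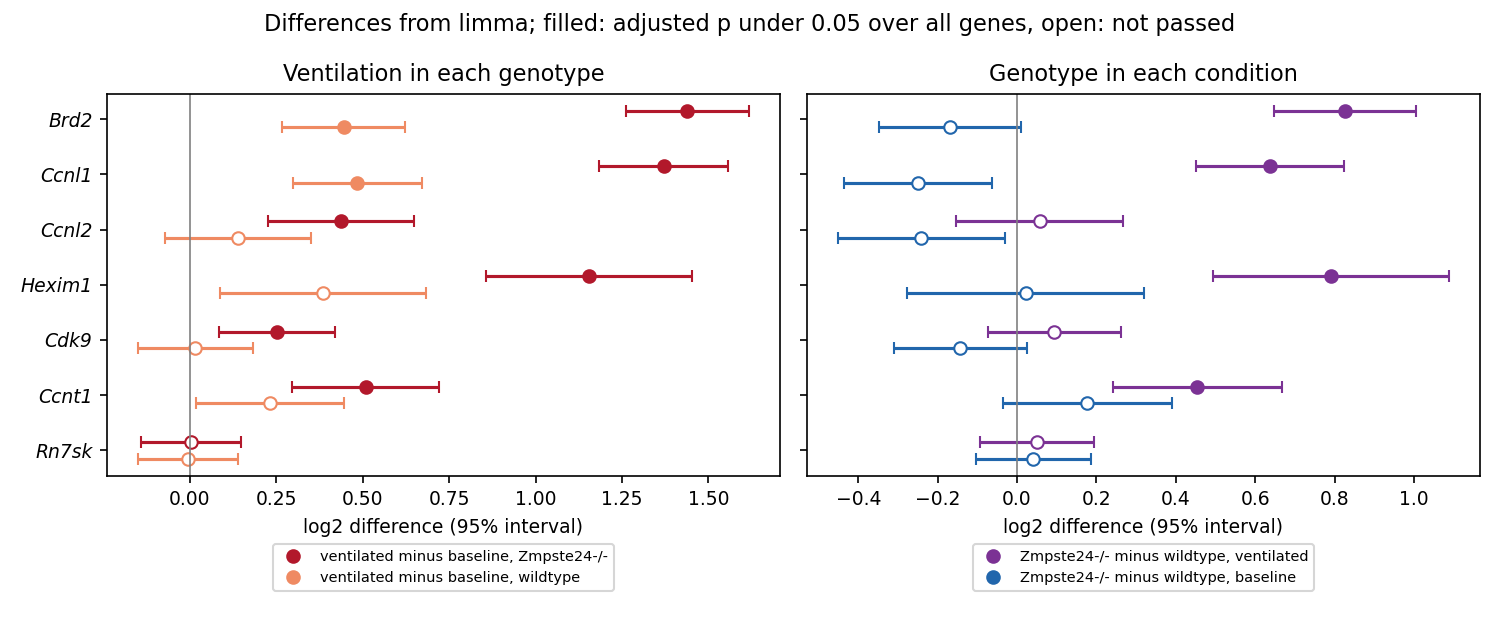
Log2 difference with its 95% interval (horizontal axis, from limma) for each of the 7 genes in the 4 pairwise comparisons, ventilation at the left with Zmpste24-/- above wildtype, and genotype at the right with ventilated above baseline; filled points passed an adjusted p of 0.05. Brd2 and Ccnl1 show the largest ventilation differences in Zmpste24-/- lungs, 1.44 and 1.37, and the Rn7sk intervals include 0 in both genotypes.

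Ccnl1, cyclin L1, rose almost as far as Brd2. It stood at 9.80, 9.76 and 10.02 in Zmpste24-/- ventilated lungs and at 9.28, 9.20 and 9.19 in wildtype ventilated lungs. In baseline lungs it stood at 8.47, 8.49 and 8.51 in Zmpste24-/- mice and at 8.62, 8.80 and 8.80 in wildtype mice. As with Brd2, no 2 groups overlapped, and Zmpste24-/- baseline lungs were lowest. The ventilation increase was 1.37 ± 0.087, or 2.59-fold, in Zmpste24-/- lungs (limma, adjusted p = 8.49e-07) and 0.48 ± 0.087, or 1.40-fold, in wildtype lungs (adjusted p = 0.00442). The difference between these increases was 0.89 ± 0.12 (interval 0.62 to 1.15, adjusted p = 0.0159), rank 7 of all genes by p-value. It missed the threshold without Zmpste24-/- baseline array 1 (adjusted p = 0.0514) and when all probes were tested together (adjusted p = 0.085), in a range of 0.00493 to 0.085 over all settings. Between genotypes Ccnl1 was higher by 0.64 ± 0.087 under ventilation (adjusted p = 0.000654), and the baseline difference of -0.25 ± 0.087 did not pass (adjusted p = 0.112).

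The stretch of the Ccnl1 promoter just before the annotated start is shown because it holds the complete cAMP response element TGACGTCA, in capitals, beginning 18 bases before that start, a pattern that 1.55% of promoter windows contain. The start used lies inside the annotated span of the gene, so it is an internal start and not the outermost one.
Ccnl1 promoter, chr3:65958250-65958279, minus strand: gtgtcggcgtggTGACGTCAgggcggaagc
Neither of the other 2 genes with large increases holds it: the 3 annotated Brd2 windows, which lie wholly or partly inside the gene, and the Hexim1 window lack these letters. A match here is a description of the letters only.

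Ccnl2, cyclin L2, is the paralogue of Ccnl1 and passed in 1 comparison, ventilation in Zmpste24-/- lungs. It was 9.32, 9.46 and 9.67 in Zmpste24-/- ventilated lungs and 9.50, 9.42 and 9.36 in wildtype ventilated lungs. In baseline lungs it was 9.11, 9.01 and 9.01 in Zmpste24-/- mice and 9.43, 9.23 and 9.20 in wildtype mice. The ventilated groups overlapped, and Zmpste24-/- baseline lungs were lowest. Ventilation raised Ccnl2 by 0.44 ± 0.098 (1.35-fold) in Zmpste24-/- lungs (limma, adjusted p = 0.0072), against 0.14 ± 0.098 in wildtype lungs (adjusted p = 0.475). Its genotype differences, 0.06 ± 0.098 under ventilation and -0.24 ± 0.098 at baseline, did not pass (adjusted p = 0.788 and 0.175), nor did the interaction, 0.30 ± 0.14 (adjusted p = 0.427). A second Ccnl2 probe, dimmer at 6.13 to 6.75 over the 12 arrays, went -0.09 ± 0.14 with ventilation in Zmpste24-/- lungs. With the mean of both probes the Ccnl2 difference was 0.17 and did not pass (adjusted p = 0.264, range over all settings 0.00397 to 0.264), so the call rests on the brighter probe.

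Of the 7 genes, 6 rose with ventilation in Zmpste24-/- lungs and 1, Rn7sk, did not pass (limma, over all genes 16.4 percent passed, 8.89 percent higher and 7.52 percent lower). In wildtype lungs 2, Brd2 and Ccnl1, rose and 5 did not pass (7.2 percent of all genes passed, 3.67 percent higher and 3.53 percent lower). Between genotypes 4 were higher in Zmpste24-/- ventilated than in wildtype ventilated lungs (10.8 percent of all genes passed, 4.72 percent higher and 6.08 percent lower). At baseline 0 passed by limma (6.31 percent of all genes passed, 2.2 percent higher and 4.11 percent lower). At an unadjusted limma p under 0.05 there were 2 members, both lower in Zmpste24-/- lungs. The same held for 4635 of all 22180 genes, 2731 of them lower. The interaction held for 2, Brd2 and Ccnl1, where 0.316 percent of all genes passed, 0.266 percent with a larger and 0.0496 percent with a smaller difference in Zmpste24-/- lungs. Arrays of the compared groups did not overlap for 6 of the 7 genes with ventilation in Zmpste24-/- lungs (33.4 percent of all genes), 2 with ventilation in wildtype lungs (22.6 percent), 5 between ventilated genotypes (30.3 percent) and 4 between baseline genotypes (23.9 percent). The median ventilation difference of the 7 genes was 0.51 in Zmpste24-/- lungs and 0.23 in wildtype lungs, against -0.0074 and -0.01 over all genes. Since the genes were chosen with these results known, the counts describe them and test nothing.

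Other genes of the pathway were counted from lists that were also drawn up with earlier results of these data known. These counts too describe the genes and test nothing. Of 78 listed genes beside the members, 23 rose and 3 fell with ventilation in Zmpste24-/- lungs and 52 did not pass, with a median difference of 0.13. Without Zmpste24-/- ventilated array 3, 17 of the 78 passed. Over all genes 8.89 percent rose and 7.52 percent fell in Zmpste24-/- lungs, and 7.2 percent passed in wildtype lungs. In wildtype lungs 2 of the 78 passed, both higher: Mepce, the methyltransferase that caps 7SK RNA (0.31 ± 0.083, adjusted p = 0.037), and Aff4, a scaffold of the super elongation complex (0.32 ± 0.083, limma adjusted p = 0.0341). Under the interaction none of the 78 passed by limma, against 0.316 percent of all genes. At an unadjusted limma p under 0.05 there were 17 of the 78, 14 with a larger and 3 with a smaller difference in Zmpste24-/- lungs. The same held for 2598 of all 22180 genes.

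Among the 12 measured genes of P-TEFb and the 7SK particle, members included, 7 rose and none fell in ventilated Zmpste24-/- lungs. Over all genes 8.89 percent rose there and 7.52 percent fell. The non-members that rose were Srsf2, a splicing factor that also binds 7SK RNA (0.72 ± 0.099, adjusted p = 0.000264), Hnrnpa2b1, which takes up 7SK RNA when P-TEFb leaves it (0.58 ± 0.089, adjusted p = 0.000626), Ppm1g, a phosphatase that releases P-TEFb (0.36 ± 0.068, adjusted p = 0.00259), and Mepce (0.43 ± 0.083, adjusted p = 0.00309). Larp7, which stabilises 7SK RNA, had a difference of 0.25 ± 0.093 (adjusted p = 0.0899) and Hexim2, the paralogue of Hexim1, of 0.08 ± 0.12 (adjusted p = 0.764), and neither passed. Hexim2 was dim, with means of 5.05 in wildtype baseline and 5.21 in wildtype ventilated lungs, below the array medians. In the super elongation complex 3 of 11 rose and 1 fell, led by the elongation factor Ell (0.72 ± 0.12, limma adjusted p = 0.000816) and Aff4 (0.45 ± 0.083). Of the 5 measured pausing factors 1 rose, Supt5 of DSIF (0.32 ± 0.077, adjusted p = 0.0123).

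Of the splicing regulators, 8 of 16 CLK kinases and SR proteins rose and none fell in ventilated Zmpste24-/- lungs. Among them were Srsf3 (0.83 ± 0.10, limma adjusted p = 0.000131), Tra2b (0.73 ± 0.085, adjusted p = 7.63e-05) and Srsf6 (0.65 ± 0.093). Srsf2, counted above with the 7SK particle, is counted here as well. No listed splicing factor passed in wildtype lungs by limma, although 7 of the 16 were at an unadjusted p under 0.05, all higher. The same held for 4530 of all 22180 genes, 2163 of them higher. Between ventilated genotypes 2 of the 16 were higher in Zmpste24-/- lungs, Tra2a (1.02 ± 0.14, limma adjusted p = 0.000654) and Tra2b (0.48 ± 0.085, adjusted p = 0.00328). In that comparison 1 was lower, Srsf5 (-0.52 ± 0.10, limma adjusted p = 0.00526), and over all genes 4.72 percent were higher and 6.08 percent lower. In Zmpste24-/- lungs 8.89 percent of all genes rose with ventilation and 7.52 percent fell. Among the 12 kinases and cyclins of other transcriptional complexes, 5 rose, the members Ccnl1 and Ccnl2 with Cdk12 (0.49 ± 0.11), Cdk13 (0.39 ± 0.085) and their cyclin Ccnk (0.31 ± 0.078). Cdk11b, the kinase partner of cyclin L, had a difference of 0.13 ± 0.086 and did not pass (adjusted p = 0.369). In the PAF1 complex and other elongation factors 3 of 12 rose and 1 fell, with Leo1 (0.79 ± 0.14) highest and Tcea3 (-0.47 ± 0.11) lower, and 2 of 11 RNA polymerase II subunits rose, Polr2l (0.70 ± 0.13) and Polr2d (0.55 ± 0.11).

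**Figure D3:**
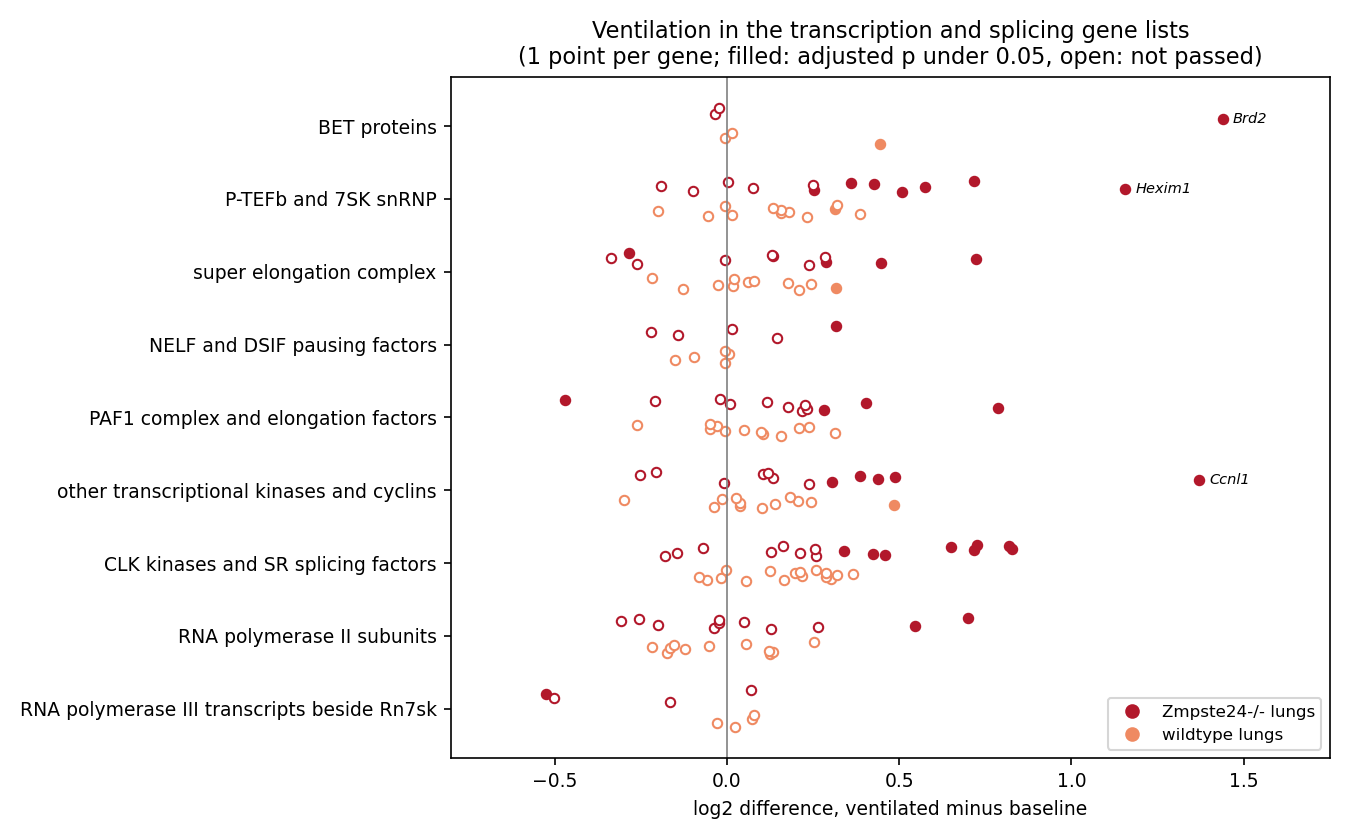
Log2 ventilation difference (horizontal axis) of each measured gene in the 9 lists, with Zmpste24-/- above wildtype in each list; filled points passed an adjusted p of 0.05. Brd2 is the only gene of its list with filled points, and the P-TEFb and splicing lists hold 7 and 8 genes that rose in Zmpste24-/- lungs. Srsf2 is in both of these lists and is counted in each.

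Genes whose pattern over the 12 arrays was closest to Brd2 and to Ccnl1 were ranked among 17253 named genes by the root mean square log2 difference after each gene's own mean was subtracted. Closest to Brd2 was Tuft1 (0.0919), first described in tooth enamel, followed by Ccnl1 (0.117), the ubiquitin ligase Siah2 (0.137), Ppp1r15a (0.139), a stress-induced phosphatase subunit, and the inositol kinase Itpkc (0.143). Closest to Ccnl1 was Clec4n (0.111), a lectin of myeloid cells, then Brd2 (0.117), the ribosome assembly factor Utp4 (0.117), Tnfaip3 (0.133), an inhibitor of NF-kB signalling, and the kinase-like Stk40 (0.134). Hexim1 came at rank 19 for Brd2 and 38 for Ccnl1, Ccnt1 at 533 and 647, and Rn7sk at 6312 and 6340. Ccnl2 came at 1431 and 1251 and Cdk9 at 2482 and 2350. The ranking describes 12 arrays that fall into 4 groups, so genes with like group means rank near each other.

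**Figure D4:**
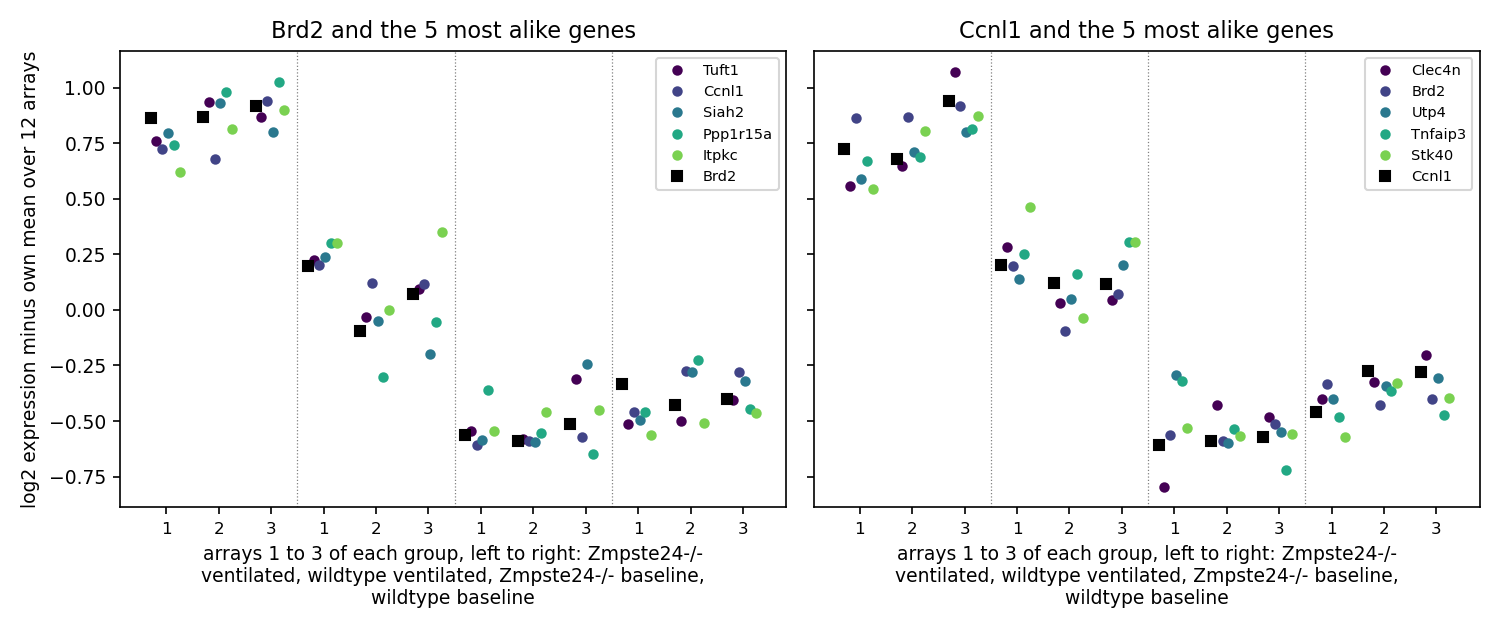
Log2 level minus the gene's own mean over 12 arrays (vertical axis) for Brd2 at the left and Ccnl1 at the right, black squares, with the 5 most alike genes, coloured points; each column is 1 array and dotted lines part the groups, from Zmpste24-/- ventilated at the left to wildtype baseline at the right. In both panels every gene stands highest in the Zmpste24-/- ventilated arrays.

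Cell type markers moved in the same lungs. Neutrophil markers rose in 8 of 8 genes with ventilation in Zmpste24-/- lungs and in 4 of 8 in wildtype lungs, and the list mean ran from 8.85 to 8.99 in Zmpste24-/- ventilated lungs, 7.52 to 8.06 in wildtype ventilated lungs, 6.89 to 7.75 in Zmpste24-/- baseline lungs and 6.51 to 7.18 in wildtype baseline lungs. Endothelial markers fell in 5 of 8 genes in Zmpste24-/- lungs and in 6 of 8 in wildtype lungs, with list means of 9.65 to 9.86 in Zmpste24-/- ventilated, 9.92 to 10.04 in wildtype ventilated, 10.06 to 10.21 in Zmpste24-/- baseline and 10.44 to 10.51 in wildtype baseline lungs. Between genotypes, B cell markers were lower in Zmpste24-/- lungs in 3 of 3 genes under ventilation and 2 of 3 at baseline, and T and NK cell markers in 3 of 5 genes in each of these comparisons. The B cell list mean ran from 7.21 to 7.63 in Zmpste24-/- ventilated, 7.94 to 8.75 in wildtype ventilated, 7.89 to 8.25 in Zmpste24-/- baseline and 8.53 to 9.09 in wildtype baseline lungs. The T and NK cell list mean ran from 5.76 to 5.88 in Zmpste24-/- ventilated, 6.41 to 6.65 in wildtype ventilated, 5.85 to 6.10 in Zmpste24-/- baseline and 6.76 to 6.92 in wildtype baseline lungs. Fibroblast and smooth muscle markers were lower in Zmpste24-/- lungs in 4 of 6 genes and higher in 1 under ventilation, and lower in 2 of 6 at baseline, with list means of 9.05 to 9.11 in Zmpste24-/- ventilated, 9.73 to 10.04 in wildtype ventilated, 9.36 to 9.60 in Zmpste24-/- baseline and 9.97 to 10.07 in wildtype baseline lungs. The part of these cells in the member changes was not tested.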

How the data were processed

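RNA from whole lung of 12 mice was measured on one-colour Affymetrix arrays, 1 array a mouse. The authors deposited normalized log2 values; per the submitters' processing notes the tools were RMA and limma (versions are not given there), and the log2 scale was read from the range of the values. No batch or scan date is given, so none was tested. The array files name no genome build, and the coordinates printed are those of RefSeq promoter windows. In the platform annotation 23521 of 41345 probes pair with a single symbol, and the brightest 1-symbol probe stood for each of 22180 genes. Values were not normalized again. Models with 1 mean a group were fitted to all 12 arrays by limma 3.58.1 under R 4.3.3, with moderated variances, and 5 contrasts were adjusted over all genes, with an adjusted p under 0.05 as passed. With 3 arrays a group, an exact permutation test of 1 gene cannot go below 0.1, and the number of arrays limits precision. Labels call the arrays biological replicates. Same-numbered arrays did not pair (correlations of deviations -0.15 to 0.15, 2 of 18 over 0.1). All 7 members are named whatever their values. Non-members named from a list as passed were among its 4 with the smallest adjusted p in a comparison, and not every such gene is named. The 5 genes most alike in pattern to Brd2 and to Ccnl1 are also named. Listed genes that did not pass were chosen for naming after their values were seen. Sequences are from RefSeq (GRCm38.p6), which had windows for 6 of the 7 genes. The fit was tried on simulated data with independent noise and changes put in for ventilation in wildtype lungs only. The other comparisons, among them the interaction, were not tried in this way. The members, lists and tests were chosen with earlier results of these data known.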

Additional observations from a re-analysis of the deposited data

Results flagged for a closer look

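The ventilation increases of Brd2 and Ccnl1 differed between genotypes by the test of that difference itself. For Brd2 the interaction was 0.99 log2 units (limma, adjusted p = 0.00494), with every ventilated array above every baseline array in both genotypes. For Ccnl1 it was 0.89 log2 units (adjusted p = 0.0159), also with no overlap in either genotype. This Ccnl1 call was lost without Zmpste24-/- baseline array 1 (limma, adjusted p = 0.0514) and with all probes tested (adjusted p = 0.085). No other member passed the interaction test. Ventilated arrays all lay above baseline arrays for 16.6 percent of all genes in Zmpste24-/- lungs and 10.8 percent in wildtype lungs. Without overlap in either direction were 33.4 and 22.6 percent. Both genes were chosen with these differences known.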

How the results depend on the processing

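Each alternative changed 1 choice. Brd2 kept its 4 calls in all settings run. Without single arrays, 5 to 6 members passed for ventilation in Zmpste24-/- lungs, 2 to 3 in wildtype lungs, 4 for genotype under ventilation, 0 at baseline and 1 to 2 for the interaction, where Ccnl1 lost its call without Zmpste24-/- baseline array 1; with all probes tested 1 member passed the interaction. With replicate number as a block, 5, 2, 4, 0 and 2 members passed in the same order, Cdk9 in Zmpste24-/- lungs being lost (limma, adjusted p = 0.0665); no other member call changed under the block. Cdk9 also missed with trended variances, all probes or 2 groups fitted (0.0712, 0.0615 and 0.0725).

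Signs turned only in uncalled differences. Cdk9 for ventilation in wildtype lungs was -0.00668 with array medians subtracted, -0.00402 after quantile normalization and -0.00671 to 0.0399 without single arrays. Rn7sk after quantile normalization was 0 for ventilation in Zmpste24-/- lungs and 0.0159 in wildtype lungs, -0.021 for genotype with ventilation and -0.00512 without, and -0.0159 for the interaction. Quantile normalization gives equal ranks equal values, so these Rn7sk values reflect only its rank on each array. It ranked 3, 1 and 1 on Zmpste24-/- ventilated arrays and 1, 3 and 1 on Zmpste24-/- baseline arrays, which fixed the 0. Without single arrays Rn7sk ran from -0.0111 to 0.0177 for ventilation in Zmpste24-/- lungs, from -0.0238 to 0.0060 in wildtype lungs and from -0.00449 to 0.0267 for the interaction. Ccnl2 for genotype was 0.00452 at baseline with probe means, and under ventilation -0.0158 after quantile normalization and -0.0354 to 0.136 without single arrays. Hexim1 at baseline ran from -0.0688 to 0.131. The causes of the other sign changes were not tested.

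Over all genes, 1597 passed for ventilation in wildtype lungs, against 927 with all probes, 923 with 2 groups fitted and 799 without wildtype ventilated array 3. At baseline 1399 passed, and 646 without Zmpste24-/- baseline array 3. For genotype under ventilation 2395 passed, and 1369 without wildtype ventilated array 2. For the interaction, 70 became 152 over the median of expression, 26 after quantile normalization, 112 with trended variances, 4 with all probes, 43 with the block and 8 to 118 without single arrays. With medians subtracted, 1528 genes were higher and 973 lower for genotype under ventilation, against 1046 and 1349. Listed genes passing for ventilation in Zmpste24-/- lungs were 26, and 17 without Zmpste24-/- ventilated array 3; at baseline 5, and 2 without wildtype baseline array 2; for genotype under ventilation 7, and 4 without wildtype ventilated array 3 or 13 with medians subtracted; for ventilation in wildtype lungs 2, with a range of 0 to 5 over the settings. The interaction fitted in fewer groups was not run.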

Other observations

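Of the listed RNAs, 3 made by RNA polymerase III differed by genotype without ventilation while Rn7sk, made by the same polymerase, did not pass. Rny1 and Rny3, the Y RNAs that bind the Ro protein, were higher in Zmpste24-/- baseline lungs than in wildtype baseline lungs by 1.46 ± 0.20 and 1.38 ± 0.24 on the log2 scale (limma, adjusted p = 0.00156 and 0.00526), and Rpph1 by 0.71 ± 0.17 (adjusted p = 0.0219). Under ventilation Rny1 and Rny3 were higher in Zmpste24-/- lungs by 1.27 and 0.91 (adjusted p = 0.00176 and 0.0293), and Rpph1 did not pass (0.12 ± 0.17, adjusted p = 0.732). Of all listed genes beside the members, 5 passed at baseline, against 2 without wildtype baseline array 2 and 3 without wildtype baseline array 3 or Zmpste24-/- baseline array 2 or 3. Over all genes 6.31 percent passed at baseline. The corresponding Rn7sk differences were 0.04 ± 0.067 at baseline and 0.05 ± 0.067 under ventilation. These genes were picked out after their values were seen, and Rn7sk is read near the top of the array's range.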
